A study of Rattus norvegicus with 12 samples.

Results

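The genes described here were 10 members of the Toll-like receptor system of the rat: the receptors Tlr2, Tlr3, Tlr4, Tlr5, Tlr7, Tlr8 and Tlr11, the co-receptors Cd14 and Ly96, and the adaptor Myd88. They were taken by symbol, as a set put together with earlier results of these data known, so their counts beside those of all entries are a description. Of these, 9 had a single entry in each of the expression tables, which held 22132 entries for the control and adenine groups and 32623 entries for the sham and UUO groups. Ly96 was not analysed here. Of the 9, 8 reached the minimum expression for testing in the adenine table (15029 entries tested) and all 9 in the UUO table (15043 entries tested).

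The study compared 2 rat models of renal fibrosis with their own controls, and asked which genes are changed in each. Kidneys came from 12 wild-type male Sprague-Dawley rats, bought at 8 weeks of age and kept for 7 days before use, with 3 rats in each of 4 groups. Rats of the adenine group were gavaged daily for 3 weeks with adenine (220 mg/kg), and the control group was given saline. In the UUO group (unilateral ureteral obstruction) the left ureter was tied off and the kidneys were collected 2 weeks later, and the sham group was operated on without ligation. Poly(A) RNA of whole kidney tissue was sequenced, and the authors deposited expression as FPKM, a fragment count corrected for gene length and library size. Each value below is the FPKM of 1 rat. Because whole tissue was measured, fewer cells of a type and less RNA per cell cannot be told apart. Read depth is unknown, and precision is given by the spread between 3 rats. P-values measure spread between rats alone, and those of the limma fits also draw on the spread of the other tested entries.

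Toll-like receptors are pattern recognition receptors of the innate immune system, carried by macrophages, dendritic cells and some epithelial cells. Receptors at the cell surface bind bacterial products, with CD14 handing lipopolysaccharide to the complex of TLR4 and MD-2 (encoded by Ly96), while receptors in endosomes bind nucleic acids. Most of them signal through the adaptor MyD88 to the transcription factor NF-κB and the interferon regulatory factors. TLR3 uses the adaptor TRIF instead. In the kidney they are studied as sensors of bacteria in the urinary tract and of molecules released by damaged tubules.

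The promoters of Cd14, Tlr4, Tlr7 and Tlr8 are shown because Cd14 and Tlr8 were the members whose change differed between the models, and Tlr4 and Tlr7 are their functional or genomic partners. Each sequence is the 250 bases before the gene start in the RefSeq annotation of the rat build GRCr8, matched by symbol, 5′ to 3′ on the strand of the gene. Promoters of 9 of the 10 members were matched in this way. The windows are chr18:28611159-28611408 on the minus strand for Cd14, and on the plus strand chr5:85160997-85161246 for Tlr4, chrX:30644176-30644425 for Tlr7 and chrX:30708476-30708725 for Tlr8. Capitals mark matches, on either strand, to the NF-κB motif GGNNTTTCC, the PU.1 motif GAGGAA, the AP-1 motif TGANTCA, the interferon-stimulated response element GAAANNGAA or the TATA box TATAAA.
Cd14: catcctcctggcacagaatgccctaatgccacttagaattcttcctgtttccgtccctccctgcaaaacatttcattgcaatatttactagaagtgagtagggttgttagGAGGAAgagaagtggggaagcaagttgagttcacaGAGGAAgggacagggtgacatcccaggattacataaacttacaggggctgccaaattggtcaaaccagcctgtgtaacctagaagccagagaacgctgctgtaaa
Tlr4: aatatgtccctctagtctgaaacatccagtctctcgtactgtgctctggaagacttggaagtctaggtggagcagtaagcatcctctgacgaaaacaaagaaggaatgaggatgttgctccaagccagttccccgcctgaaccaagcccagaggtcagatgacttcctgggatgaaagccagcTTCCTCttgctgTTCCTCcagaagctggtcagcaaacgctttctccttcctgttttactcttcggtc
Tlr7: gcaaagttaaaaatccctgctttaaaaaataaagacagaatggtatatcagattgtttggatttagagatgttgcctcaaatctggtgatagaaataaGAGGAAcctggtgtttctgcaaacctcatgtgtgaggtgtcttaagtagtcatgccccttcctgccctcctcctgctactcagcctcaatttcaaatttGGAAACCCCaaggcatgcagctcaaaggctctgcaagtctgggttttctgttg
Tlr8: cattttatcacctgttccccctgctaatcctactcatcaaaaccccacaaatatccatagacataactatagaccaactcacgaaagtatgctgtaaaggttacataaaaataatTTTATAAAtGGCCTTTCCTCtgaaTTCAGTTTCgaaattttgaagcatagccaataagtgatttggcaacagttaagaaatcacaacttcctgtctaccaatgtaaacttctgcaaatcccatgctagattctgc

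PU.1 is a transcription factor of the myeloid lineage, and its motif was present in 6 of the 9 member promoters, against 23.3% of 33469 rat promoters of the same length. The members with a match were Tlr3, Tlr4, Tlr7, Tlr8, Tlr11 and Cd14. Cd14 held 2 matches, 140 and 105 bases before the start, and Tlr4 also held 2, 67 and 55 bases before it. The NF-κB motif was found in Tlr7 and Tlr8 alone, against 5.19% of all promoters. In Tlr8 that match overlaps the PU.1 match, and TATA box matches on both strands, which overlap each other, lie just before it. The response element was found in Tlr8, Tlr11 and Myd88 (8.12% of all promoters), the AP-1 motif in Myd88 (6.34%) and the TATA box in Tlr8 (12.9%). Tlr7 and Tlr8 are neighbours on chromosome X. A match is a description of the letters in the window, and no binding was measured.

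In the adenine model, 6 of the 8 tested members were upregulated DEGs, against 10.7% of all tested entries. A DEG (differentially expressed gene) needed a log2 fold change of 2 or more in either direction and an adjusted p under 0.05, with limma fitted over all entries on log2(FPKM + 0.1) and Benjamini-Hochberg adjustment. None was a downregulated DEG, against 5.03% of entries. All 8 passed the adjusted p with higher levels in the adenine group, against 39.6% of entries, and in all 8 the 3 adenine rats were above the 3 control rats, against 45.0% of entries. The median log2 fold change of the 8 was 3.16, against 0.30 over all entries. Tlr5 and Tlr8 reached the minimum of 0.5 FPKM in the adenine rats alone, so their separation from the control rats followed from the minimum. Tlr11, whose groups overlapped, was left out by the same minimum.

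In the UUO model, 6 of the 9 tested members were upregulated DEGs, against 13.2% of all tested entries. None was downregulated, against 4.21%. All 9 passed the adjusted p with higher levels in the UUO group, against 56.1% of entries, and in all 9 the groups did not overlap, against 60.0%. Their median log2 fold change was 3.04, against 0.62 over all entries. With 3 rats against 3, an exact two-sided permutation test of a single gene cannot go below a p of 0.1, and it was 0.1 for each of these. Tlr5 and Tlr11 reached the minimum of 0.5 FPKM in the UUO rats alone, so their separation from the sham rats followed from the minimum.

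**Figure D1:**
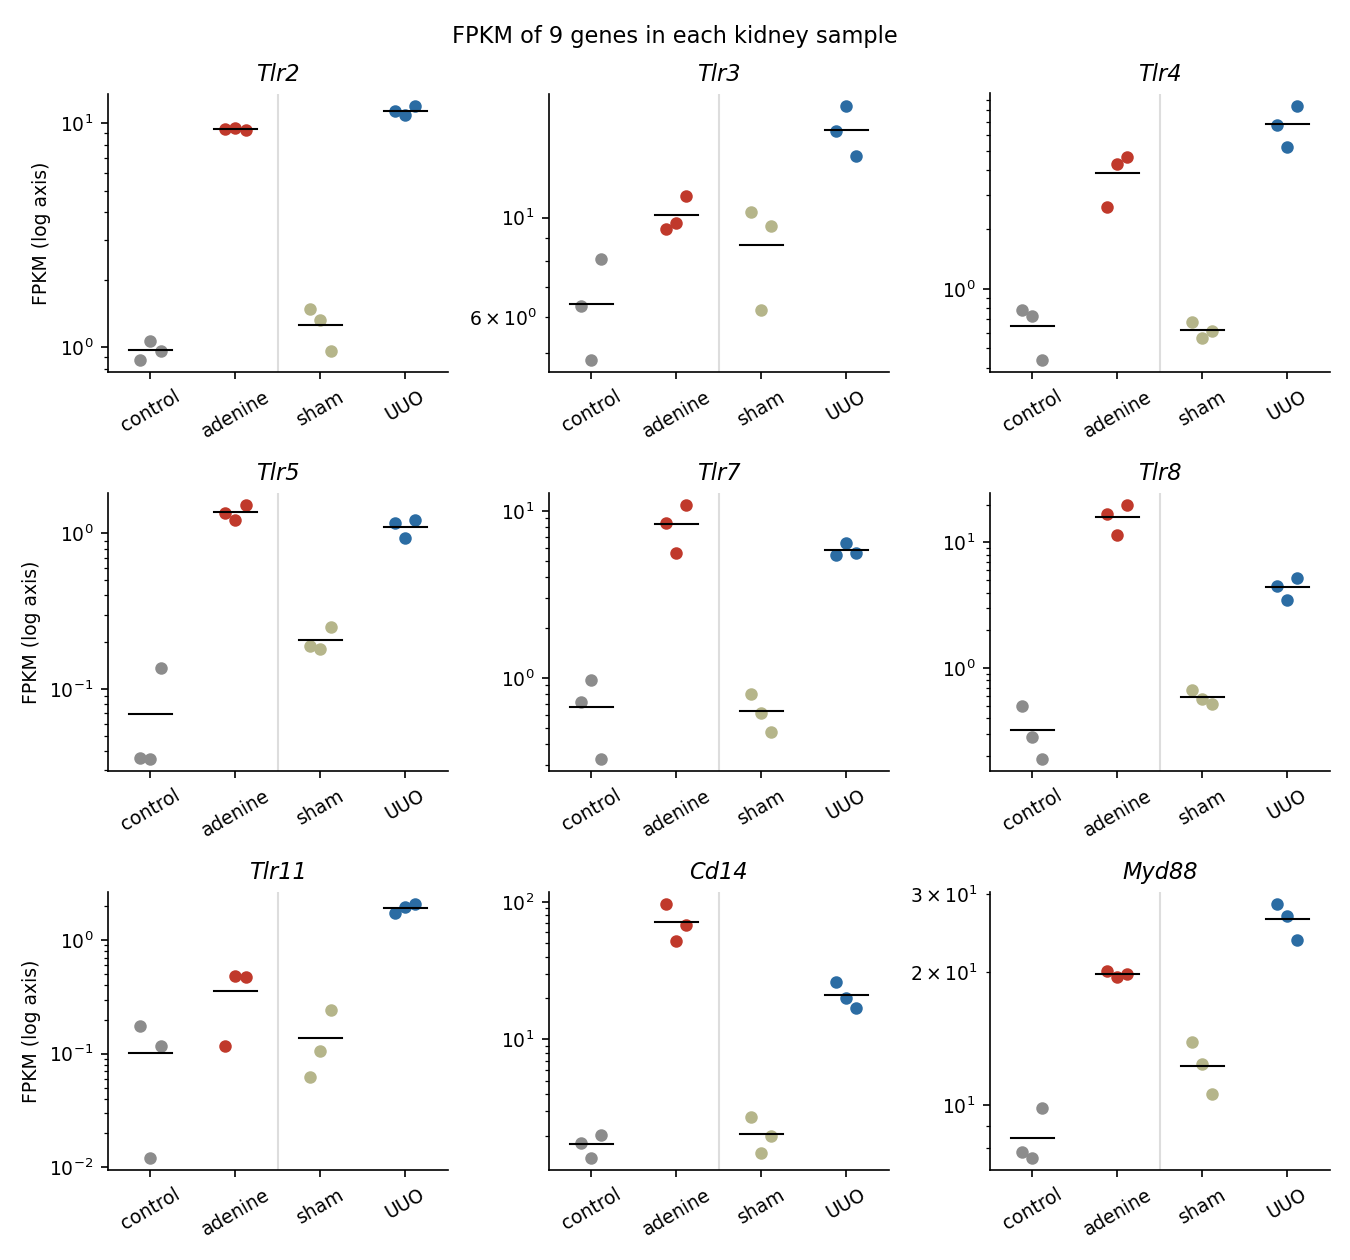
FPKM (log axis) of the 9 analysed members in each of 12 kidneys, 1 point per rat, with a black line at the group mean of 3 rats. Disease samples lie above their own reference samples in all panels except Tlr11 in the adenine model, where adenine rat 1 (0.116) lies among the control rats.

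The surface receptors for bacterial lipids rose in both models. Tlr2, which recognises lipoproteins together with Tlr1 or Tlr6, was at 0.878, 1.06 and 0.962 FPKM in the control rats and at 9.41, 9.46 and 9.30 in the adenine rats. It was at 1.48, 1.32 and 0.959 in the sham rats and at 11.3, 10.9 and 11.9 in the UUO rats. The disease groups were tight and far from their references. The fitted log2 fold changes were 3.16 (SE 0.15, limma adjusted p = 2.74e-05) and 3.10 (SE 0.19, limma adjusted p = 2.83e-05).

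Tlr4, the signalling receptor for lipopolysaccharide, was at 0.782, 0.732 and 0.438 FPKM in the control rats and at 2.59, 4.29 and 4.64 in the adenine rats. With UUO it went from 0.676, 0.565 and 0.611 to 6.77, 5.23 and 8.41. Adenine rat 1 had the lowest level of the disease samples but lay well above every reference rat. Fitted log2 fold changes were 2.38 (SE 0.31, limma adjusted p = 0.000856) and 3.24 (SE 0.22, limma adjusted p = 4.37e-05).

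Cd14, the co-receptor that carries lipopolysaccharide to TLR4 and is abundant on monocytes, changed most in level. It was at 1.76, 1.38 and 2.03 FPKM in the control rats and at 96.4, 51.7 and 68.0 in the adenine rats, a mean of 72.0 ± 22.6 against 1.72 ± 0.327 (SD, n = 3). It was at 2.73, 1.49 and 1.99 in the sham rats and at 26.4, 20.0 and 16.8 in the UUO rats, a mean of 21.0 ± 4.90 against 2.07 ± 0.622. Reference levels were alike in both tables, and the lowest adenine rat was above the highest UUO rat, although levels of the separately made tables were not tested against each other. The log2 fold changes were 5.28 (SE 0.25, limma adjusted p = 2.74e-05) and 3.30 (SE 0.26, limma adjusted p = 6.9e-05).

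Tlr5, the receptor for flagellin, was low in every kidney. The control rats were at 0.0361, 0.0357 and 0.136 FPKM and the adenine rats at 1.36, 1.22 and 1.52. The sham rats were at 0.189, 0.181 and 0.251 and the UUO rats at 1.16, 0.932 and 1.22. Both disease groups were near the same FPKM, while every control rat was below every sham rat. The adenine model gave a log2 fold change of 3.16 (SE 0.34) with a limma adjusted p = 0.000355, and the UUO model one of 1.97 (SE 0.28) with a limma adjusted p = 0.00077, just under the fold threshold of a DEG. Values this low depend on the constant of 0.1 added before the log, and the ratios of mean FPKM were 19.7 and 5.33.

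Tlr11, which recognises profilin of protozoan parasites and has been studied in the urinary tract of mice, was at 0.174, 0.0121 and 0.117 FPKM in the control rats and at 0.116, 0.482 and 0.479 in the adenine rats. These groups overlapped and the gene did not reach the minimum of 0.5 FPKM in 3 samples. Without that minimum the fitted log2 change was 1.15 (SE 0.53, limma adjusted p = 0.131). The sham rats were at 0.0619, 0.106 and 0.242 and the UUO rats at 1.73, 1.97 and 2.08, without overlap, and the fitted change was 3.17 on the log2 scale (SE 0.35, limma adjusted p = 0.000261). The difference between the models, also without the minimum, was -2.02 (SE 0.66) and did not pass (adjusted p = 0.0546).

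Of the endosomal receptors, Tlr7 and Tlr8 rose strongly and Tlr3 slightly. Tlr7, a receptor for single-stranded RNA, was at 0.715, 0.970 and 0.328 FPKM in the control rats and at 8.44, 5.61 and 10.8 in the adenine rats. It was at 0.800, 0.614 and 0.475 in the sham rats and at 5.44, 6.44 and 5.60 in the UUO rats. The adenine rats spread more widely than the UUO rats and 1 of them was inside the UUO range. The log2 fold changes were 3.49 (SE 0.40, limma adjusted p = 0.000473) and 3.04 (SE 0.22, limma adjusted p = 5.46e-05).

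Tlr8, also a receptor for single-stranded RNA and the neighbour of Tlr7, was at 0.499, 0.285 and 0.191 FPKM in the control rats and at 16.9, 11.4 and 19.8 in the adenine rats. With UUO it went from 0.674, 0.569 and 0.517 to 4.51, 3.50 and 5.18. Tlr8 was lower than Tlr7 on average in both reference groups and in the UUO group, and was higher than Tlr7 in each of the 3 adenine rats. On the log2 scale the fold changes were 5.28 (SE 0.33, limma adjusted p = 5.77e-05) and 2.70 (SE 0.22, limma adjusted p = 8.51e-05).

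Tlr3, the receptor for double-stranded RNA, was the most abundant receptor of the reference kidneys. It was at 6.36, 4.83 and 8.11 FPKM in the control rats and at 9.43, 9.73 and 11.2 in the adenine rats, and at 10.3, 6.24 and 9.57 in the sham rats and 15.6, 17.7 and 13.7 in the UUO rats. Its log2 fold changes of 0.67 (SE 0.20, limma adjusted p = 0.0261) and 0.87 (SE 0.21, limma adjusted p = 0.00831) exceeded the medians of all entries by only 0.37 and 0.25. They did not pass after median-of-ratios scaling, which put the median of all entries at 0.07 and 0.08 (log2 fold change 0.44, limma adjusted p = 0.0982 for adenine, and 0.33, limma adjusted p = 0.226 for UUO). In the adenine model the call was also lost without control rat 1 (0.68, limma adjusted p = 0.0598), without adenine rat 2 (0.70, limma adjusted p = 0.0569) and without adenine rat 3 (0.60, limma adjusted p = 0.0879).

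Myd88, the shared adaptor, had the highest mean of the members in both reference groups and rose in both models. It was at 7.85, 7.62 and 9.85 FPKM in the control rats and at 20.1, 19.5 and 19.8 in the adenine rats. It was at 13.9, 12.4 and 10.6 in the sham rats and at 28.5, 26.8 and 23.7 in the UUO rats. Myd88 had log2 fold changes of 1.23 (SE 0.13, limma adjusted p = 0.000335) and 1.10 (SE 0.13, limma adjusted p = 0.000347), and so passed the adjusted p but not the fold threshold. They exceeded the medians of all entries by 0.93 and 0.48. After median-of-ratios scaling they were 1.0 (limma adjusted p = 0.000941) for adenine and 0.55 (limma adjusted p = 0.0157) for UUO.

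**Figure D2:**
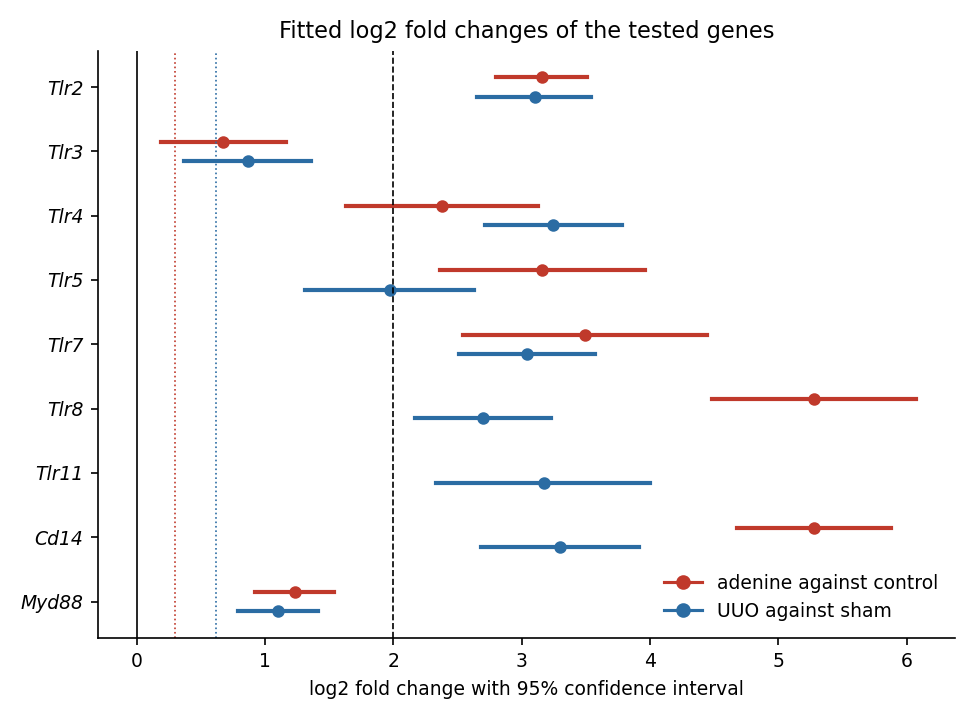
Fitted log2 fold change (point) with its 95% confidence interval (line) for each tested member in the adenine and UUO models. The dashed line marks the fold threshold of 2 and dotted lines the medians of all tested entries (0.30 adenine, 0.62 UUO), and the intervals of the models are apart for Tlr8 (5.28 and 2.70) and Cd14 (5.28 and 3.30).

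The order of the FPKM levels changed with disease. In the control group it ran from Myd88 (8.44 ± 1.23) and Tlr3 (6.43 ± 1.64), whose ranges overlapped, to Cd14 (1.72 ± 0.327) and Tlr2 (0.968 ± 0.0932), each separate from the gene above. Tlr7, Tlr4 and Tlr8 followed with ranges that overlapped from 1 to the next, and Tlr11 (0.101 ± 0.0822) and Tlr5 (0.0694 ± 0.0580) came last. The sham group had the same order down to Tlr8, with Tlr5 (0.207 ± 0.0384) and Tlr11 (0.136 ± 0.0937) at the end and overlapping. In the adenine group Cd14 was first, separate from Myd88 (19.8 ± 0.300), and Tlr8 (16.0 ± 4.26) came next with a range that overlapped Myd88. Tlr3, Tlr2 and Tlr7 followed between 10.1 and 8.27 on average with overlapping ranges, then Tlr4 (3.84 ± 1.09), Tlr5 and Tlr11. In the UUO group Myd88 (26.3 ± 2.40), Cd14 and Tlr3 (15.7 ± 1.98) came first with ranges that overlapped from 1 to the next, ahead of Tlr2 (11.4 ± 0.514). Tlr8 (4.40 ± 0.846) stood below Tlr4 (6.80 ± 1.59) and Tlr7 (5.83 ± 0.536) in that group.

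The change differed between the models for 2 of the 8 members tested in both, Tlr8 and Cd14. A difference was called with an adjusted p under 0.05 and a size of at least 1 on the log2 scale, in the test of the difference of both fits, and 12.8% of 13486 symbols were called in either direction. The log2 fold change of Tlr8 was higher in the adenine model by 2.58 (SE 0.40, 95% interval 1.71 to 3.44, adjusted p = 0.000919 from the limma fits), and that of Cd14 by 1.98 (SE 0.36, interval 1.20 to 2.76, adjusted p = 0.00217 from the limma fits). The differences of Tlr5 (1.19, interval 0.25 to 2.13, adjusted p = 0.0577) and Tlr4 (-0.86, interval -1.69 to -0.03, adjusted p = 0.11) from the limma fits did not pass. Those of Tlr7 (0.45, interval -0.53 to 1.43), Tlr2 (0.06, interval -0.46 to 0.57), Tlr3 (-0.20, interval -0.82 to 0.43) and Myd88 (0.13, interval -0.26 to 0.53) did not pass either. Tlr5 was called in 5 of the alternative settings, with differences between 1.19 and 1.98.

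The level of Cd14 relative to Tlr4, a pair whose ratio was examined after the values had been seen, separated the adenine rats from the rest. The FPKM ratio of Cd14 to Tlr4 was 2.24, 1.88 and 4.63 in the control rats and 37.2, 12.1 and 14.7 in the adenine rats, and 4.04, 2.64 and 3.27 in the sham rats and 3.89, 3.82 and 1.99 in the UUO rats. The adenine rats were all above the control rats, while the sham and UUO rats overlapped (exact permutation p = 0.1 and 0.8, n = 3 per group). The ratio of Tlr8 to Tlr7, a pair also examined after the values had been seen, showed the same split. It was 0.699, 0.294 and 0.581 in the control rats and 2.01, 2.04 and 1.84 in the adenine rats, and 0.842, 0.928 and 1.09 in the sham rats and 0.829, 0.543 and 0.924 in the UUO rats (exact permutation p = 0.1 and 0.2, n = 3 per group). The ratio of Tlr2 to Tlr4 overlapped between groups in both models. A ratio within a sample does not depend on how the samples were scaled. The difference of these ratios between the models was not tested. Cd14 and Tlr8 were already the members called between the models, so the ratios restate those values and are not separate evidence.

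**Figure D3:**
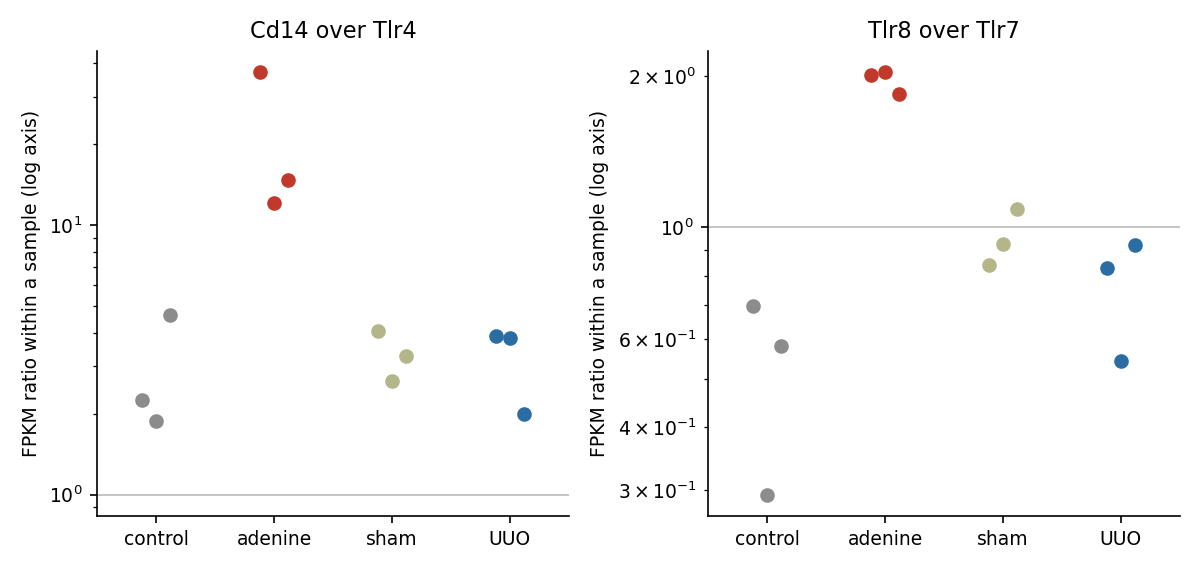
FPKM of Cd14 over Tlr4 (left) and of Tlr8 over Tlr7 (right) within each of 12 kidneys, 1 point per rat on a log axis, with a grey line at a ratio of 1. The 3 adenine rats lie above all other rats in both panels (12.1 to 37.2 for Cd14 over Tlr4, 1.84 to 2.04 for Tlr8 over Tlr7).

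Macrophage and monocyte markers moved with the members. All 12 markers of that list were upregulated DEGs in both models (10.7% and 13.2% over all entries), with median log2 fold changes of 4.39 (adenine) and 3.70 (UUO). Their summed FPKM lay between 217 and 276 in the control rats and between 7250 and 13700 in the adenine rats, 43.3-fold higher on average. It lay between 241 and 366 in the sham rats and between 1990 and 2940 in the UUO rats, 8.2-fold higher. The sum was mostly Lyz2, the lysozyme of myeloid cells, at 82.3% to 90.0% in the adenine rats and 60.2% to 64.5% in the UUO rats. The part of these cells in the rise of the receptors was not tested.

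Several of these markers also differed between the models, as Tlr8 and Cd14 did. Of the 12, 5 were called with a larger log2 fold change in the adenine model and 0 with a larger one in the UUO model, while over all 13486 symbols 455 and 1273 were called. Without a call, Adgre1 (-0.52, interval -1.45 to 0.40) and Aif1 (-0.45, interval -0.89 to -0.01) had the larger fold change in the UUO model. Itgam, the integrin CD11b of myeloid cells, was at 0.223, 0.280 and 0.0976 FPKM in the control rats and at 59.1, 31.5 and 48.9 in the adenine rats. It was at 0.203, 0.279 and 0.258 in the sham rats and at 5.29, 3.56 and 4.48 in the UUO rats, and its difference was 3.58 (SE 0.41, adjusted p = 0.000119 from the limma fits). Lyz2 differed by 2.90 (SE 0.39) and Cd68, a lysosomal protein of macrophages, by 2.49 (SE 0.34), both of the size seen for Tlr8 and Cd14. Csf1r and Cd163 differed by 1.06 and 1.64. For Ptprc, which encodes the pan-leukocyte protein CD45, the difference was 0.61 (interval -0.31 to 1.53) and did not pass.

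Relative to the summed macrophage and monocyte list of the same sample, Cd14 had a log2 difference of only -0.04 (SE 0.22) between adenine and control rats, and the groups overlapped. Tlr8 differed by 0.30 (SE 0.34), also with overlap. Tlr2 (-2.11), Tlr4 (-2.84), Tlr7 (-1.69), Tlr3 (-4.72) and Myd88 (-4.16) were lower relative to the list in all 3 adenine rats than in all 3 control rats. The summed list itself was higher by 5.44 (adenine) and 3.04 (UUO) on the log2 scale. A gene whose own level did not change would therefore also be lower relative to it. In the UUO model only Tlr3 (-2.16) and Myd88 (-1.93) were separate, and the other 7 members overlapped between sham and UUO, with Tlr5 at -0.62, Tlr8 at -0.14, Tlr2 at 0.16, Tlr7 at 0.20, Cd14 at 0.32, Tlr4 at 0.40 and Tlr11 at 1.00. The values depend on the marker taken as the base. Against Ptprc alone, Tlr8 (2.32) and Cd14 (1.98) were higher in all adenine rats than in all control rats, Tlr3 (-2.70) and Myd88 (-2.14) stayed lower, and Tlr2 (-0.10), Tlr4 (-0.82) and Tlr7 (0.33) overlapped. Against the list without Lyz2, a base added after seeing the data, Tlr8 (1.29) and Cd14 (0.95) were again higher and separate in the adenine model, and 4 members were separate in the UUO model, with Tlr5 (-1.26) and Tlr8 (-0.78) besides Tlr3 and Myd88. Without UUO rat 3, 4 members were also separate.

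Markers of several other cells also differed between the groups. The summed FPKM of 4 T cell markers was 4.33-fold higher after adenine and 13.1-fold higher after UUO, that of B cell markers 2.71-fold and 11-fold, and that of dendritic cell markers 16.7-fold and 6.14-fold, without overlap of the groups. The dendritic sum of the adenine rats was mostly Itgax (98.1, 42.1 and 78.1 FPKM), whose change was larger in the adenine model by 2.22 and was called. Clec9a was called in the other direction (-1.84), and Flt3 (-0.17) and Zbtb46 (-0.43) did not pass. Xcr1 and Siglech overlapped between control and adenine rats. The B cell sums hold 4 genes in the adenine table and 3 in the UUO table, where Cd79a was not analysed. The sum of 3 endothelial markers overlapped between control and adenine (0.925-fold) and was 2.59-fold higher with UUO, and Cdh5 (-1.64) and Tek (-1.31) were called between the models. Neutrophil markers summed to 4.06 to 6.48 in the adenine rats and 2.04 to 5.79 in the UUO rats, against at most 1.42 in a reference rat. The tested ones were upregulated DEGs, Csf3r with log2 fold changes of 2.94 and 2.87 and Cxcr2 with 3.22 in the UUO model. In the adenine model Cxcr2, Camp and Mmp8 were under the minimum, and Cxcr2 and Camp did not overlap between groups while Mmp8 did. The granule genes Mpo and Elane did not reach the minimum FPKM in either model. Mpo was at 3.30, 0 and 0 in the adenine rats against 1.01, 0 and 0.20 in the control rats. Elane was listed at its floor of 0.0001 in all 6 rats of the UUO model. Proximal tubule markers stood at 0.115 and 0.125 of their reference sums and markers of other kidney segments at 0.159 and 0.0778, and both sums were high in every reference rat, as the kidney label asks. Of the 5 proximal tubule markers, Slc34a1, Slc22a6 and Lrp2 were downregulated DEGs in both models. Cubn and Slc5a2 overlapped between groups in both, with log2 fold changes of -0.34 and 2.78 for adenine and of -0.48 and 0.05 for UUO. The part of these changes in the members' values was not tested. Summed over all entries, FPKM was 564972 to 582725 in the control rats, 468389 to 487770 in the adenine rats, 619664 to 630244 in the sham rats and 528811 to 539011 in the UUO rats.

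The other genes of the pathway were taken from 8 lists by role, 73 genes in all, of which 64 had enough expression in the adenine table and 63 in the UUO table. In the adenine model 25 were upregulated and 2 downregulated DEGs (10.7% and 5.03% over all entries), and 45 passed the adjusted p upward (39.6%) and 5 downward. In the UUO model 27 were upregulated and 1 was a downregulated DEG (13.2% and 4.21% over all entries), and 52 passed upward (56.1%) and 4 downward. The DEGs of both directions, 27 with adenine and 28 with UUO, numbered 16 with adenine under a pseudocount of 1 and 18 with UUO after quantile normalization. The median log2 fold changes were 1.63 and 1.77, below those of the 8 and 9 tested members (3.16 and 3.04) and above those of all entries.

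**Figure D4:**
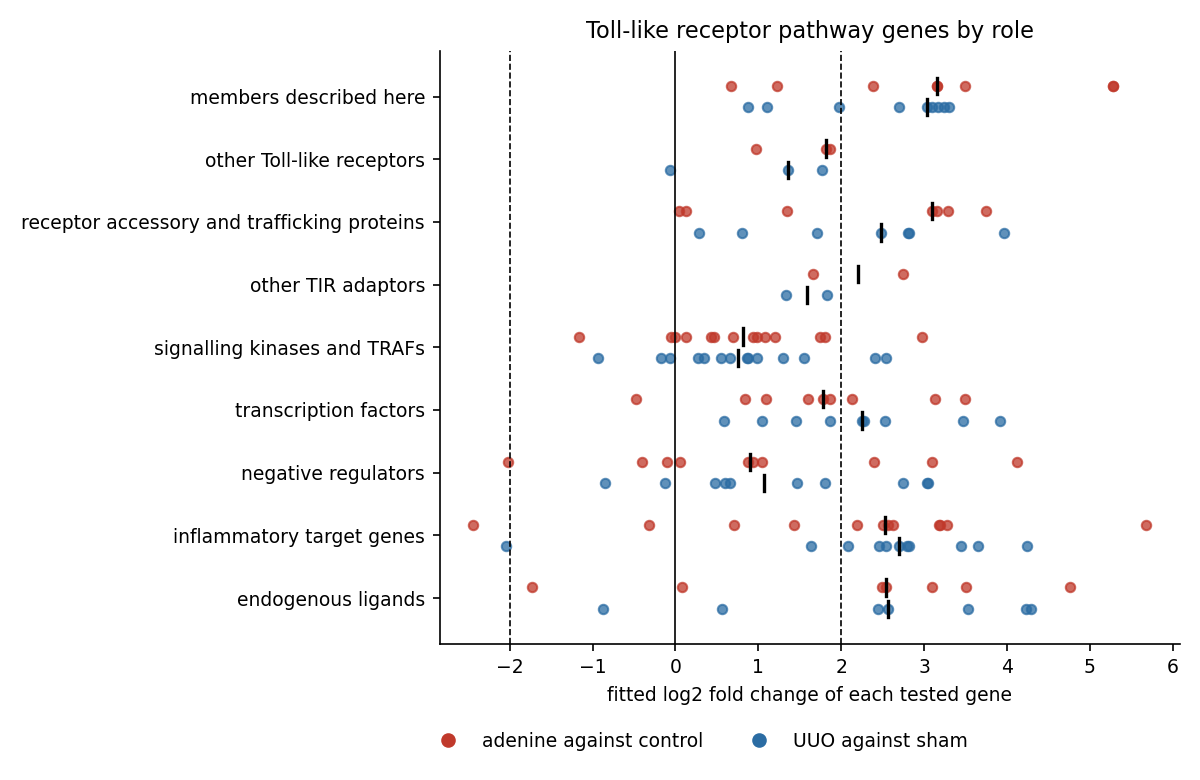
Fitted log2 fold change of each tested gene of the Toll-like receptor pathway, by role, in the adenine (red) and UUO (blue) models, with a black bar at each list's median and dashed lines at the thresholds of -2 and 2. Medians of the members lie at 3.16 and 3.04, and those of the signalling kinases at 0.81 and 0.76.

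Among the other receptors, none of the 3 tested genes was a DEG in either model (10.7% and 13.2% upregulated over all entries). Tlr1 was at 1.15, 0.951 and 1.29 FPKM in the control rats and at 3.06, 5.19 and 5.21 in the adenine rats, with log2 fold changes of 1.87 (SE 0.26) and 1.77 (SE 0.27) in the adenine and UUO models. Tlr6 had log2 fold changes of 1.82 (SE 0.20) and 1.36 (SE 0.21). Tlr1 and Tlr6 are neighbouring paralogs that could share reads, so their separate values are uncertain. Both partners of Tlr2 thus rose, and the FPKM ratio of Tlr2 to Tlr6 still went from 1.80, 2.11 and 1.93 in the control rats to 4.92, 5.02 and 4.14 in the adenine rats, and from 2.40, 2.10 and 1.48 in the sham rats to 7.33, 5.69 and 6.19 in the UUO rats. The remaining receptors of the list are named after their values were seen. Tlr12 overlapped between groups in both models. Tlr9, a receptor for bacterial DNA, stayed under the minimum in both tables and was not tested, but its groups did not overlap in either model. It was at 0.108, 0.0429 and 0.0925 FPKM in the control rats and at 0.417, 0.623 and 0.573 in the adenine rats. The sham rats were at 0.351, 0.234 and 0.209 and the UUO rats at 0.492, 0.531 and 0.768.

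Of the accessory and trafficking proteins, 4 of 7 were upregulated DEGs in each model (10.7% and 13.2% over all entries). Ly86, which encodes MD-1, the partner of the receptor-like protein CD180, was at 3.09, 3.23 and 2.78 FPKM in the control rats and at 34.0, 25.8 and 32.2 in the adenine rats, so that it rose by 3.29 (SE 0.14) on the log2 scale, and by 2.82 (SE 0.17) in the UUO model. Cd180 itself rose by 3.75 (SE 0.25) and 2.48 (SE 0.21) on the log2 scale, a difference of 1.27 that was called (adjusted p = 0.0121 from the limma fits). Lbp, the plasma protein that passes lipopolysaccharide to CD14, was at 2.52, 2.19 and 2.39 FPKM in the sham rats and at 34.6, 52.2 and 31.2 in the UUO rats. Its log2 fold change was 3.96 (SE 0.20) there and 3.16 (SE 0.41) in the adenine model. The fourth DEG, Unc93b1, which escorts the endosomal receptors and was named after its values were seen, had log2 fold changes of 3.10 (SE 0.12) and 2.81 (SE 0.14).

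Of the adaptors, 2 were tested, and both passed the adjusted p upward in each model, against 39.6% (adenine) and 56.1% (UUO) of all entries. A count of 2 genes is too small to set against these shares. Ticam2, the bridge between TLR4 and TRIF, rose by 2.74 (SE 0.21) in the adenine model and by 1.83 (SE 0.31) after UUO, on the log2 scale. Tirap, the bridge between TLR4 or TLR2 and MyD88, had 1.66 (SE 0.23) and 1.34 (SE 0.25). Of 14 kinases and TRAF proteins, Ikbke alone was a DEG in each model (10.7% and 13.2% upregulated over all entries). Ikbke was at 1.96, 2.59 and 2.22 FPKM in the control rats and 27.8, 13.1 and 16.7 in the adenine rats. Its log2 fold change was 2.97 (SE 0.28) in the adenine model and 2.54 (SE 0.25) in the UUO model. Ikbkg, the scaffold of the IκB kinase complex, had 1.80 (SE 0.35) and 0.98 (SE 0.18). Map3k7 could not be read in the UUO table, where it was listed at 0.0001 in 2 sham rats and 1 UUO rat and at 5.19 to 9.63 in the others.

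Among 9 transcription factors, 3 were upregulated DEGs with adenine and 5 with UUO (10.7% and 13.2% over all entries). Irf8, a factor of the myeloid lineage, was at 5.64, 3.68 and 3.57 FPKM in the control rats and 39.1, 38.6 and 35.3 in the adenine rats. It went from 4.74, 5.38 and 4.48 in the sham rats to 62.8, 53.1 and 48.9 in the UUO rats. The log2 fold changes were 3.13 (SE 0.19) and 3.47 (SE 0.13). Irf5, which acts downstream of MyD88, had log2 fold changes of 3.50 (SE 0.25) and 2.53 (SE 0.17). Irf7, an interferon-induced factor, spread widely. It was at 14.7, 14.0 and 130 FPKM in the adenine rats, with 1 rat far above the other 2, against 9.80, 18.6 and 15.1 in the control rats, and at 332, 566 and 84.5 in the UUO rats against 22.2, 12.1 and 16.8 in the sham rats. Its log2 fold change was 3.92 (SE 0.66) with UUO and 1.09 (SE 0.85, limma adjusted p = 0.301) with adenine, and these changes did not pass the test of their difference (adjusted p = 0.0658 from the limma fits).

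Negative regulators went both ways. Tnfaip3, the NF-κB inhibitor A20, was at 0.955, 0.483 and 0.912 FPKM in the control rats and at 15.1, 13.2 and 16.2 in the adenine rats, and at 2.39, 1.61 and 1.57 in the sham rats and 15.2, 13.9 and 18.8 in the UUO rats. The log2 fold changes were 4.12 (SE 0.26) and 3.05 (SE 0.21). Il1rl1, the interleukin-33 receptor ST2, had 3.10 (SE 0.31) and 3.03 (SE 0.24). Sigirr, an inhibitory receptor of the same superfamily that was named after its values were seen, fell from 34.5, 41.6 and 39.0 FPKM in the control rats to 8.04, 10.6 and 9.66 in the adenine rats (log2 fold change -2.02, SE 0.14). Sham to UUO, it went from 32.1, 30.3 and 30.8 to 16.6, 19.3 and 15.8 (log2 fold change -0.85, SE 0.10).

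Inflammatory target genes held 8 upregulated DEGs of 12 tested with adenine and 9 of 11 tested with UUO (10.7% and 13.2% over all entries). Cxcl2, a neutrophil chemokine, was at 0.036, 0 and 0 FPKM in the control rats and at 8.45, 4.35 and 4.69 in the adenine rats. In the UUO table it was at 0.0473 in 1 sham rat and at the floor of 0.0001 in the other 2, and at 0.578, 0.741 and 0.811 in the UUO rats. Its fitted log2 fold changes of 5.68 and 2.82 rest on the added constant, and their difference of 2.86 (SE 0.50) was called (adjusted p = 0.00177 from the limma fits). Cxcl1 was at 0.553, 0.575 and 1.06 FPKM in the control rats and at 7.63, 7.59 and 7.73 in the adenine rats, and at 4.71, 4.98 and 4.56 in the UUO rats. Ccl2, a monocyte chemokine, had log2 fold changes of 3.19 (SE 0.26) and 3.65 (SE 0.29). Ptgs2, the inducible cyclooxygenase that the kidney also makes constitutively, was the target gene that fell in both models and was named for this after its values were seen. It was at 1.85, 1.06 and 0.985 FPKM in the control rats and at 0.0975, 0.267 and 0.110 in the adenine rats, with log2 fold changes of -2.44 (SE 0.39) and -2.05 (SE 0.61).

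Of 7 genes of endogenous ligands, 5 were upregulated DEGs in each model (10.7% and 13.2% over all entries). Hspd1 and Hmgb1, named after their values were seen, were not. Hspd1 fell by -1.73 (SE 0.13, limma adjusted p = 0.000111) with adenine and by -0.87 (SE 0.15, limma adjusted p = 0.00164) with UUO, on the log2 scale. Hmgb1 had log2 fold changes of 0.08 (SE 0.11, limma adjusted p = 0.543) and 0.56 (SE 0.11, limma adjusted p = 0.00354). S100a8 and S100a9 encode the subunits of calprotectin, a ligand of TLR4 made by neutrophils and monocytes. S100a8 was at 0.0994, 0.402 and 0 FPKM in the control rats and at 3.88, 7.97 and 6.07 in the adenine rats. S100a9 was at 1.03, 0.593 and 0.893 in the control rats and at 4.82, 14.8 and 15.6 in the adenine rats, and at 8.04, 22.2 and 3.61 in the UUO rats. Tnc, the matrix protein tenascin-C, was at 1.26, 1.48 and 0.703 FPKM in the sham rats and at 15.6, 34.9 and 20.4 in the UUO rats, a log2 fold change of 4.23 (SE 0.37), and had 3.10 (SE 0.24) in the adenine model.

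Of the 63 other pathway genes tested in both models, 8 (12.7%) were called with a different change, a share near the 12.8% of all symbols. Cd180, Tnfaip3 (1.07) and Cxcl2 were higher in the adenine model. Ccl5 (-2.77), Cxcl10 (-2.73), Socs1 (-2.21), Sigirr (-1.17) and Irf3 (-1.07) had log2 fold changes that were lower there than in the UUO model. Ccl5 and Cxcl10 are chemokines for T cells, and Socs1 is an inhibitor of cytokine signalling. None of these 5 was tested against the rise of T cell markers in the UUO model.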

How the data were processed

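RNA of 12 rat kidneys was analysed in 4 groups of 3, assigned by the labels. FPKM values per gene were deposited by the authors, with the adenine experiment (control, adenine) and the surgical experiment (sham, UUO) in separate tables. The submitters' processing notes name cutadapt 1.9, HISAT2 2.0.4, StringTie 1.3.4d, edgeR and DESeq2 without their roles. The genome build and annotation are not given in the sources used here, so genes were matched by symbol, and promoters were taken from RefSeq (GRCr8). Strand-specific counting is not stated.

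Each table was fitted separately, as log2(FPKM + 0.1), with limma 3.58.1 (lmFit, eBayes with a trend, R 4.3.3) over entries that reached 0.5 FPKM in 3 or more of the 6 samples. FPKM is not a count, so no count model was used. DEGs were defined by a log2 fold change of 2 or more in size and a p under 0.05 after Benjamini-Hochberg adjustment over all tested entries. The added constant understates the changes of low genes. The difference between models was the difference of both log2 fold changes over its standard error, with the t distribution and the degrees of freedom of both fits added, adjusted over 13486 symbols with a single entry. Exact permutation tests were two-sided. Other steps used Python 3.11.15, pandas 2.3.3 and scipy 1.17.1. The fits were tested on simulated data.

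The members and lists were chosen with earlier results of these data known. Named pathway genes are the 2 tested genes of each list and model with the largest absolute log2 fold change. Others are marked as named after their values were seen, or were called between the models. Tlr10, Tlr13, Cd36 and Ticam1 were not analysed here. Alternatives were other pseudocounts (1 and 0.01), no minimum, a minimum of 1, median-of-ratios, quantile or equal-sum scaling, eBayes without trend, a replicate block, no fold threshold, the ratio of mean FPKM, and leaving out each rat. Reads per sample are unknown, so no counting error was calculated.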

Additional observations from a re-analysis of the deposited data

Results flagged for a closer look

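The log2 fold change differed between the adenine and UUO models for Tlr8, by 2.58 (SE 0.40, adjusted p = 0.000919 from the limma fits), and was higher in the adenine model, where all 3 rats exceeded all 3 control rats. It stayed called under every alternative, between 1.9 and 3.05. For Cd14 the difference was 1.98 (SE 0.36, adjusted p = 0.00217 from the limma fits), in the same direction, between 1.75 and 2.45 under the alternatives. The macrophage and monocyte markers Itgam (3.58), Lyz2 (2.90), Cd68 (2.49), Cd163 (1.64) and Csf1r (1.06) differed in that direction too, and their part in the differences of Tlr8 and Cd14 was not tested. Groups of 3 rats are too small for a search for single outlying samples.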

How the results depend on the processing

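The count of members that were DEGs, 6 in each model, was 4 in each with a pseudocount of 1, 5 in each after quantile normalization, and 8 and 9 without the fold threshold. When each rat was left out it was 6 for adenine and 6 to 7 for UUO. Tlr8 and Cd14 remained the members called between the models, with Tlr5 added under some settings, a range of 2 to 3 when a rat was left out. Pathway genes called numbered 27 with adenine and 28 with UUO, and 26 to 28 and 26 to 29 without 1 rat. They numbered 16 (adenine) with a pseudocount of 1 and 18 (UUO) after quantile normalization. Without the fold threshold it was 50 and 56. Members separate from their reference relative to the macrophage list numbered 5 with adenine (5 to 6 without 1 rat) and 2 with UUO (2 to 4 without 1 rat). In the UUO model they numbered 4 without UUO rat 3, and 4 with the list without Lyz2. The share of all entries that are separate in this way was not counted, and the rise of the list by itself lowers such ratios. The cause of these changes was not tested.

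Some calls of single members were near the threshold. With a pseudocount of 1 the log2 fold changes of Tlr4 (1.53) and Tlr5 (1.15) in the adenine model and of Tlr8 (1.75) and Tlr11 (1.37) in the UUO model fell under 2, as did Tlr4 (1.84) and Tlr8 (1.87) after quantile normalization. Tlr5 in the UUO model passed it in 5 settings, at 2.07 to 2.41. Differences that did not pass changed sign for Tlr2, to -0.06 with a pseudocount of 1, -0.01 without control rat 1 and -0.07 without sham rat 1 (range without 1 rat -0.07 to 0.22), and for Tlr3, to 0.11 after median-of-ratios scaling, 0.06 after quantile normalization and 0.02 without sham rat 2 (range without 1 rat -0.39 to 0.02). Tlr7 relative to the marker changed to 0.33 with Ptprc alone.

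Scaling moved the balance of all DEGs from 1604 up and 756 down to 1377 and 915 (adenine) and from 1980 and 633 to 1308 and 917 (UUO) after median-of-ratios scaling, and to 1203 and 975 and 1114 and 944 after quantile normalization. With a pseudocount of 1 it was 840 and 480, and 1038 and 427. Deviations of same-numbered rats were weakly correlated (0.05, 0.105 and 0.0593 in the UUO model and -0.0772, -0.123 and -0.0487 in the adenine model). Those of differently numbered rats lay lower in the UUO model (-0.0782 to 0.0157) and higher in the adenine model (-0.0437 to 0.113). With so few pairs these values cannot decide whether the numbers pair the samples. With the replicate block 6 members were called in each model. With 3 rats per group and unknown depth, a p that misses the threshold leaves small changes undetected, above all for genes under 1 FPKM such as Tlr5 and Tlr11.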
